A study of Mus musculus with 8 samples.

Results

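The genes described here encode the proteasome, its regulators and its assembly factors. They were taken as every gene whose non-control array probes carry a name beginning with Psma, Psmb, Psmc, Psmd, Psme, Psmf or Psmg followed by a number. This gave 62 probes of 49 genes, out of 39429 probes and 30397 gene symbols on the array. Of the 49 genes, 48 belong to the proteasome system, and Psmc3ip was matched by its name alone, because its product is a recombination factor named for binding a proteasome ATPase.

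Agilent arrays of 1 colour measured RNA from E14 cells, a mouse embryonic stem cell (ESC) line grown on gelatin, without feeder cells, in medium with LIF. The cells were infected with lentivirus carrying short hairpin RNAs and collected 72 h later, to ask whether the deacetylase Hdac6 acts together with Tip60 (gene Kat5), the acetyltransferase of the Tip60-p400 chromatin complex. The groups were control KD (a hairpin against EGFP, which has no target in these cells), Tip60 KD, Hdac6 KD and double KD (hairpins against both), with 2 biological replicates each, A and B. Each target was depleted with 1 hairpin sequence in a mixed population of infected cells, so that every group measures 1 hairpin or hairpin pair and off-target effects cannot be told apart from loss of the target.

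The proteasome degrades ubiquitylated proteins. Its core particle is a barrel of alpha rings (Psma genes) around beta rings (Psmb genes), whose subunits Psmb5, Psmb6 and Psmb7 carry the catalytic sites, and in the immunoproteasome Psmb8, Psmb9 and Psmb10 take their places. The regulatory particle caps the barrel: its ATPases (Psmc genes) unfold substrates, and its other subunits (Psmd genes) include scaffolds and some that bind or remove ubiquitin. Psme genes encode alternative activators, Psmf1 an inhibitor, and Psmg genes with Psmd5, Psmd9 and Psmd10 chaperones that assist assembly. Proteasome activity is known to be high in pluripotent cells, while the immunoproteasome is best known from cells exposed to interferon and from blood cells.

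Every value below rests on hybridisation to 60-base probes. The probes of the members that moved farthest (Psmd14, Psmb10 and Psmb9), and of Psmc3, which changed in every knockdown, are given 5′ to 3′ in lower case as deposited, with positions on mouse build mm9. A reading frame without a stop codon runs through the probes of Psmd14 (chr2:61599058-61599117, plus strand), Psmc3 (chr2:90898252-90898311, plus strand) and Psmb9 (chr17:34319174-34319233, minus strand). The probe of Psmb10 (chr8:108459677-108459736, minus strand) is shown over its first 43 bases, with the stop codon of its second reading frame in capitals.
Psmd14: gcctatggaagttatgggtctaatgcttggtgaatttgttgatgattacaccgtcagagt
Psmc3: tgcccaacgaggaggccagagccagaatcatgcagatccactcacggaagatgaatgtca
Psmb9: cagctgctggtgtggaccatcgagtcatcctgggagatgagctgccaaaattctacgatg
Psmb10: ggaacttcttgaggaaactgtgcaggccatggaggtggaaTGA

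Signals are given on the log2 scale after division of each array by its 75th percentile, so that 0 is the level of that percentile. Values below -2.71 were raised to it, since this floor is the lowest level that every array measured above background. Between 21896 and 40609 of 43020 spots on an array were well above background. Control KD had the fewest among the A arrays (31179) and among the B arrays (21896). It also had the highest median background in each set, 61.0 and 114. Double KD array B stood apart from the other B arrays, with a median background of 41.4 beside 86.9 to 114. It had 40276 spots well above background, beside 21896 to 27645. The part of these differences in the values of dim genes was not tested. Replicates correlated across genes with r between 0.986 and 0.989. Kat5 was 1.34 and 1.37 on the control KD arrays and 0.00 and 0.01 on the Tip60 KD arrays, and Hdac6 was 2.21 and 2.18 on the control KD arrays and -0.28 and -0.32 on the Hdac6 KD arrays. In double KD ESCs, Kat5 was -0.11 and 0.20 and Hdac6 0.30 and 0.34, and Hdac6 also fell by 0.44 upon Tip60 KD (limma, adjusted p = 0.0062). Hdac6 was thus depleted less far in double KD than in Hdac6 KD ESCs (a difference of 0.62, adjusted p = 0.015). Of 9 stem cell markers, 8 were well above background on all 8 arrays. Of 5 endoderm markers 1 was, of 6 fibroblast markers 3 and of 5 blood markers 2. The other stem cell marker, Nanog, ranged from 2.73 to 3.09 over the 7 arrays with a value. Its spot on Tip60 KD array A was set aside as an outlier. Stem cell markers moved too (limma): 3 of 9 were called higher upon Tip60 KD, 2 upon Hdac6 KD and 3 in double KD ESCs, where Sox2 was lower (-0.35). These are 33.3%, 22.2% and 44.4%, beside 39.7%, 28.9% and 32.8% of all genes. Pou5f1 rose in each, by 1.01, 0.47 and 0.63. The 2 fibroblast markers that could be tested, Col1a1 and Thy1, were higher upon Tip60 KD and in double KD. Their summed level ranged over the arrays from 0.62 to 0.83 with the control hairpin, 1.12 to 1.40 with Tip60 KD, 0.68 to 0.77 with Hdac6 KD and 1.19 to 1.38 with both. Col1a1 was near the floor with the control hairpin (-2.24 and -2.60) and at it with Hdac6 KD. Postn was well above background on none of the arrays. Their part in the results below was not tested. These are bulk samples, in which fewer cells of a type and less RNA per cell cannot be told apart.

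Of the 49 genes, 47 passed the filter on dim probes and were tested, 46 of them proteasome genes. Psmb8 and Psmb11, a beta subunit of the thymus, did not pass. Upon Tip60 KD, 18 of the 46 proteasome genes (39.1%) differed from control KD at an adjusted p under 0.1 (limma), 12 higher and 6 lower. Over all 18116 genes tested the share was 39.7%, with 19.7% higher and 20.0% lower. Upon Hdac6 KD, 11 (23.9%) differed, 7 higher and 4 lower, against 28.9% of all genes, 14.0% higher and 14.9% lower. In double KD ESCs, 15 (32.6%) differed, 7 higher and 8 lower, against 32.8% of all genes, 15.9% higher and 16.9% lower. The share of proteasome genes called was therefore near or under that of all genes in each knockdown. Their median log2 change was 0.05, 0.03 and 0.04 in Tip60, Hdac6 and double KD ESCs, beside 0.06, 0.03 and 0.05 for all genes. With quantile normalisation in place of the percentile, the split in double KD ESCs became 16 higher and 6 lower, beside 15.3% of all genes higher and 14.0% lower, and in the deposited table of processed values it was 10 higher and 4 lower, beside 12.6% and 11.5%. With the replicate letter as a block, which takes out the difference between the slides, 25 of the 47 genes were called upon Tip60 KD, 23 upon Hdac6 KD and 21 in double KD ESCs, beside 60.8%, 52.9% and 55.4% of all genes. The 3 comparisons share the control KD arrays, so they are given side by side and their likeness was not assessed.

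**Figure D1:**
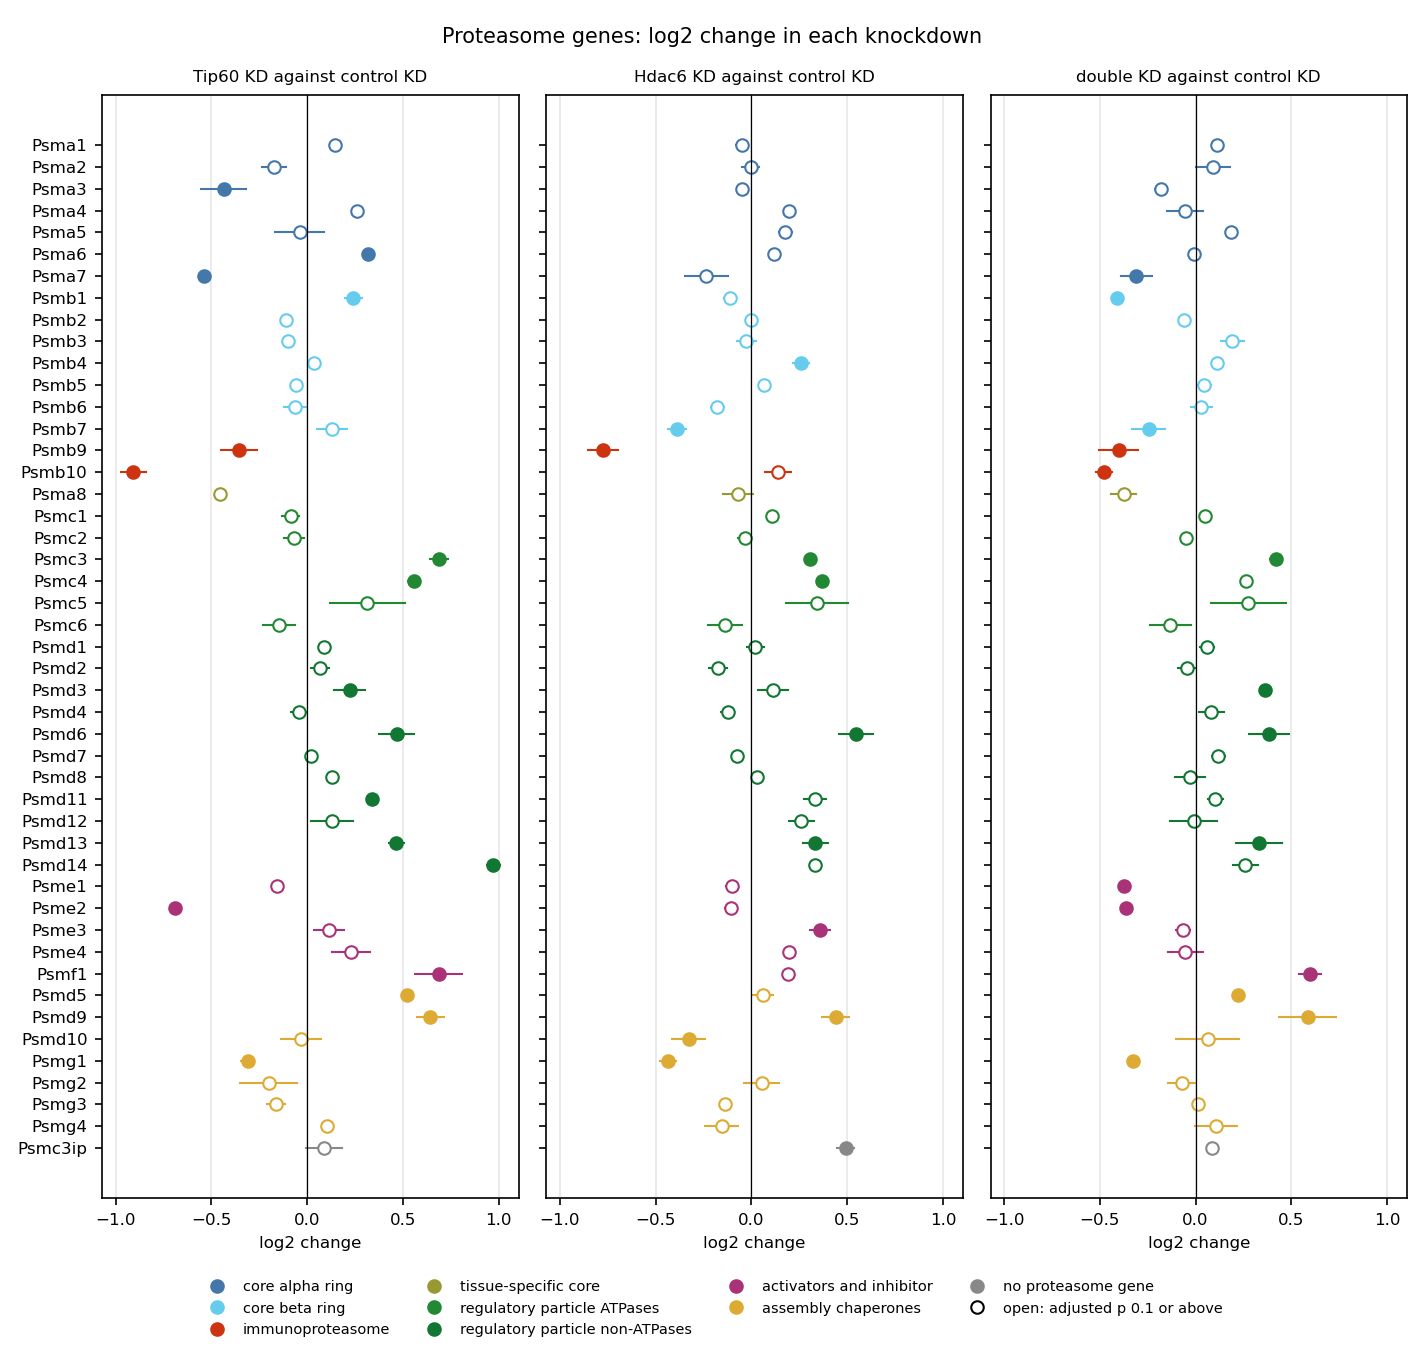
Log2 change of the 47 genes tested in Tip60, Hdac6 and double KD ESCs against control KD, with lines joining the differences within slides A and B and filled circles for an adjusted p under 0.1 (limma). Filled circles of the regulatory particle (green) all lie to the right of 0, those of the immunoproteasome (red) all to the left, and the core rings (blue) lie on both sides.

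Calls were next counted by the parts of the proteasome. Of 17 regulatory particle genes, 7 rose and none fell upon Tip60 KD, 4 rose and none fell upon Hdac6 KD, and 4 rose and none fell in double KD ESCs (limma; 8, 7 and 5 of the 17 had an unadjusted p under 0.05). Of the 14 genes of the core rings, 2 rose and 2 fell upon Tip60 KD, 1 rose and 1 fell upon Hdac6 KD, and 3 fell in double KD ESCs. The calls were 41.2%, 23.5% and 23.5% of the regulatory particle genes and 28.6%, 14.3% and 21.4% of the core genes. Over all genes they were 39.7%, 28.9% and 32.8%, so the regulatory particle lay near or under that share of calls in either direction. By direction, 19.7%, 14.0% and 15.9% of all genes were higher and 20.0%, 14.9% and 16.9% lower. All calls of the regulatory particle were higher, so its shares lay above those of all genes called higher, and this was not tested. The median change of the regulatory particle was 0.13, 0.12 and 0.10 in Tip60, Hdac6 and double KD ESCs, and that of the core rings was -0.05, -0.02 and 0.01. That of all genes was 0.06, 0.03 and 0.05. No test of one part against the other was made. The directions of the core genes and their median change in double KD ESCs depended on the scaling. With quantile normalisation, 6 core genes were higher and 1 lower in double KD ESCs. Of the regulatory particle genes, 1 (Psmd2) was called lower upon Hdac6 KD when the replicate letter was a block, and 1 was called lower there with either other background correction.

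Psmd14, the deubiquitylase that removes ubiquitin chains from substrates at the proteasome, rose farthest of all members. It was 2.49 and 2.39 with the control hairpin, 3.50 and 3.33 with Tip60 KD, 2.84 and 2.70 with Hdac6 KD, and 2.82 and 2.58 with both. The Tip60 KD arrays lay above all others, and those of Hdac6 KD and double KD overlapped each other and lay above control KD. The change upon Tip60 KD was 0.97 ± 0.12 (SE, n = 2 arrays a group, limma, adjusted p = 0.0028), a 1.96-fold increase, and was 1.01 within slide A and 0.94 within slide B. Upon Hdac6 KD the change was 0.33 ± 0.12 (adjusted p = 0.11) and in double KD ESCs 0.26 ± 0.12 (adjusted p = 0.18), with 95% confidence intervals of 0.04 to 0.62 and -0.03 to 0.55. With the replicate letter as a block, these passed the threshold (adjusted p = 0.0075 and 0.015).

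Other non-ATPase subunits of the regulatory particle that rose were Psmd6, Psmd13, Psmd3 and Psmd11. Psmd6, a scaffold subunit of the lid, was 3.74 and 3.80 with the control hairpin, 4.30 and 4.18 with Tip60 KD, 4.37 and 4.26 with Hdac6 KD, and 4.23 and 4.08 with both. All 6 knockdown arrays lay above both control KD arrays. The changes were 0.47, 0.55 and 0.38 (SE 0.09, adjusted p = 0.014, 0.014 and 0.034). Psmd13, also of the lid, was 2.48 and 2.47 with the control hairpin, 2.98 and 2.89 with Tip60 KD, 2.88 and 2.74 with Hdac6 KD, and 2.93 and 2.68 with both. Its knockdown arrays again lay above control KD, with changes of 0.47, 0.33 and 0.33 (SE 0.11, adjusted p = 0.023, 0.086 and 0.080). The Psmd13 calls in Hdac6 KD and double KD ESCs were lost in 10 and 11 of the 18 alternatives, with an adjusted p of 0.22 or more without control KD array A or B, while the call upon Tip60 KD was lost only without Tip60 KD array A (adjusted p = 0.10). That of Psmd6 in double KD ESCs was lost without control KD array A (adjusted p = 0.14) or double KD array A (adjusted p = 0.13). Psmd3 rose by 0.22 in Tip60 KD and 0.36 in double KD ESCs, and Psmd11 by 0.34 in Tip60 KD ESCs, where both lay just inside the threshold (adjusted p = 0.099 and 0.098) and did not pass without control KD array A or B (adjusted p of 0.12 to 0.33). The Psmd3 call in double KD ESCs was lost without control KD array A (adjusted p = 0.12). The other 6, including the ubiquitin receptor Psmd4 and the largest scaffold subunits Psmd1 and Psmd2, were called in none of the knockdowns, with changes between -0.17 and 0.26. With the block, Psmd11, Psmd12 and Psmd2 passed upon Hdac6 KD.

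Among the ATPases, Psmc3 and Psmc4 rose. Psmc3 was 4.22 and 4.17 with the control hairpin, 4.95 and 4.81 with Tip60 KD, 4.54 and 4.47 with Hdac6 KD, and 4.67 and 4.56 with both. The groups did not overlap, with control KD lowest and Tip60 KD highest. Its changes were 0.69, 0.31 and 0.42 (SE 0.09, adjusted p = 0.0033, 0.060 and 0.022), and the second Psmc3 probe gave 0.45, 0.37 and 0.45. Its call upon Hdac6 KD was lost without any 1 of the control KD or Hdac6 KD arrays (adjusted p of 0.15 to 0.21). Psmc4 rose by 0.56 upon Tip60 KD and 0.37 upon Hdac6 KD (SE 0.10, adjusted p = 0.0096 and 0.051), and its change of 0.27 in double KD ESCs did not pass (adjusted p = 0.11; 0.011 with the block). The Psmc4 call upon Hdac6 KD was lost without control KD array A (adjusted p = 0.20), Hdac6 KD array A (0.10) or Hdac6 KD array B (0.23). The other ATPase genes, Psmc1, Psmc2, Psmc5 and Psmc6, were not called. Psmc5 came closest, with changes of 0.31, 0.34 and 0.28, with control KD arrays at 3.39 and 3.05. It passed in all knockdowns with the replicate letter as a block (adjusted p = 0.058, 0.053 and 0.092).

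**Figure D2:**
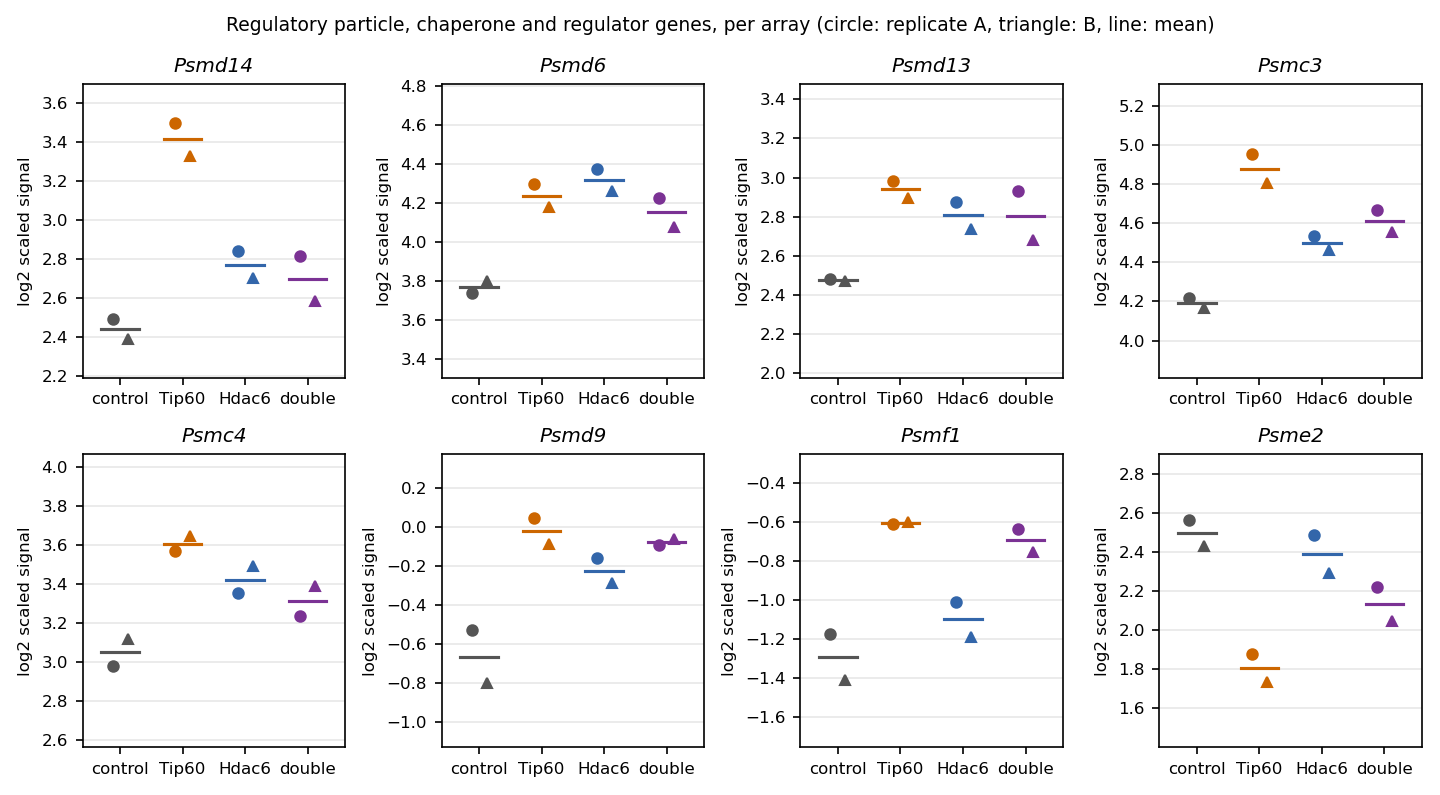
Log2 scaled signal of 8 members on each array (circles: replicate A, triangles: replicate B, lines: group means). For Psmd14, Psmd6, Psmd13, Psmc3, Psmc4, Psmd9 and Psmf1 the 2 Tip60 KD arrays lie above both control KD arrays, and for Psme2 they lie below them.

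Among the alpha ring genes, whose products gate the entry to the barrel, Psma7 and Psma3 fell and Psma6 rose upon Tip60 KD. Psma7 fell by 0.54 (SE 0.09, adjusted p = 0.0064) and also by 0.31 in double KD ESCs (adjusted p = 0.050), where the call was lost without any 1 of the control KD or double KD arrays (adjusted p of 0.10 to 0.18) and quantile normalisation took the change to -0.11 (adjusted p = 0.46). Psma3 fell by 0.44 upon Tip60 KD (adjusted p = 0.035; 0.14, 0.10 and 0.12 without control KD array A, control KD array B and Tip60 KD array B), and Psma6 rose by 0.32 (SE 0.07, adjusted p = 0.016). No alpha ring gene was called upon Hdac6 KD (1 had an unadjusted p under 0.05; with the block, 2 were called). Psma1, Psma2, Psma4 and Psma5 were called in none of the knockdowns, with changes between -0.17 and 0.26. With the block, Psma1 passed upon Tip60 KD, Psma4 upon Tip60 KD and Hdac6 KD, Psma7 upon Hdac6 KD and Psma3 in double KD ESCs.

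Of the beta ring genes outside the catalytic set, Psmb1 moved in opposite directions, and it is given in full for that reason, after its values were seen. It was 4.13 and 4.13 with the control hairpin, 4.33 and 4.42 with Tip60 KD, 3.99 and 4.05 with Hdac6 KD, and 3.71 and 3.74 with both. No groups overlapped, and double KD lay lowest. Its change was 0.24 upon Tip60 KD (adjusted p = 0.053) and -0.41 in double KD ESCs (adjusted p = 0.013), while the -0.11 upon Hdac6 KD was not called (SE 0.07 for each). The call upon Tip60 KD was lost without control KD array A or B (adjusted p = 0.15 in both) or Tip60 KD array B (adjusted p = 0.19). In the deposited table of processed values the change in double KD ESCs was -0.21 (adjusted p = 0.29). Psmb4 rose by 0.26 upon Hdac6 KD (adjusted p = 0.064; 0.14 to 0.22 without any 1 of the arrays compared), and Psmb2 and Psmb3 were called in no knockdown, although Psmb3 passed in double KD ESCs with the block.

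The catalytic subunits of the constitutive proteasome were compared with those of the immunoproteasome, each gene against its own level in control KD because signals of different probes are not comparable. Psmb5, which carries the chymotrypsin-like site, was 5.04 and 4.92 with the control hairpin, 4.99 and 4.86 with Tip60 KD, 5.09 and 5.01 with Hdac6 KD, and 5.12 and 4.93 with both. Psmb6, with the caspase-like site, was 6.00 and 5.95 with the control hairpin, 5.88 and 5.94 with Tip60 KD, 5.85 and 5.74 with Hdac6 KD, and 6.08 and 5.92 with both. Groups overlapped for Psmb5, and the Psmb6 arrays of Hdac6 KD lay just below the others. Neither gene was called in any knockdown (limma), and the 95% confidence intervals of their changes lay between -0.40 and 0.32, although Psmb6 passed upon Hdac6 KD with the replicate letter as a block (adjusted p = 0.099). The second Psmb5 probe behaved differently, with 0.38 upon Tip60 KD and 0.31 upon Hdac6 KD (adjusted p = 0.018 and 0.047). That probe lies at chr14:55233161-55233220 and the one that represents the gene at chr14:55232957-55233016 (both minus strand), where it holds the letters of a polyadenylation signal.

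Psmb7, which carries the trypsin-like site, was 1.72 and 1.81 with the control hairpin, 1.92 and 1.86 with Tip60 KD, 1.37 and 1.37 with Hdac6 KD, and 1.56 and 1.48 with both. The Hdac6 KD arrays lay lowest and the Tip60 KD arrays highest, with no overlap. Psmb7 fell by 0.39 upon Hdac6 KD (SE 0.08, adjusted p = 0.021; 0.10 without Hdac6 KD array B) and by 0.24 in double KD ESCs (adjusted p = 0.071), where the call was lost in 11 of the 18 alternatives, with an adjusted p up to 0.24 without double KD array B. Its 0.13 upon Tip60 KD was not called.

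Both immunoproteasome genes that could be tested fell upon Tip60 KD and in double KD ESCs, and upon Hdac6 KD only Psmb9 was called. Psmb10, the counterpart of Psmb7, was 0.38 and 0.34 with the control hairpin, -0.46 and -0.64 with Tip60 KD, 0.58 and 0.41 with Hdac6 KD, and -0.06 and -0.18 with both. Its Tip60 KD arrays were lowest, those of double KD lay between, and those of Hdac6 KD lay above control KD. Upon Tip60 KD it fell by 0.91 (SE 0.11, adjusted p = 0.0024), to 53.3% of control KD, and in double KD ESCs by 0.48 (adjusted p = 0.025; 0.11 without control KD array A or without double KD array B). Upon Hdac6 KD its change was 0.14 with a 95% confidence interval of -0.12 to 0.40 (adjusted p = 0.44).

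Psmb9, the counterpart of Psmb6, was -0.93 and -1.07 with the control hairpin, -1.38 and -1.33 with Tip60 KD, -1.78 and -1.76 with Hdac6 KD, and -1.44 and -1.36 with both. All knockdown arrays lay below control KD, and those of Hdac6 KD lay lowest, while Tip60 KD and double KD overlapped. Upon Hdac6 KD it fell by 0.77 (SE 0.08, adjusted p = 0.0039), to 58.5% of control KD. Upon Tip60 KD it fell by 0.36 (adjusted p = 0.021) and in double KD ESCs by 0.40 (adjusted p = 0.019), and both calls were lost with normexp background correction (adjusted p = 0.22 and 0.14). A second Psmb9 probe never rose above the floor.

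Psmb8, the counterpart of Psmb5, was well above background on 7 of the 8 arrays but above the floor on none. As a share of the 75th percentile, on a linear scale, its signal was 0.0599 and 0.0641 with the control hairpin, 0.0896 and 0.137 with Tip60 KD, 0.0759 and 0.103 with Hdac6 KD, and 0.0704 and 0.131 with both, against a floor of 0.153. These values lie below the common floor, so no change was computed for Psmb8. The subunits specific to other tissues were dim as well: Psmb11 was not well above background on any array, and Psma8, an alpha subunit of the testis, ranged from -2.50 to -1.69 over the 7 arrays on which it was measured, its spot on Tip60 KD array B having been set aside by the scanner software. Psma8 was not called, but with the block it passed upon Tip60 KD (-0.66, adjusted p = 0.0028), where that group had 1 array, and in double KD ESCs (-0.37, adjusted p = 0.014).

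**Figure D3:**
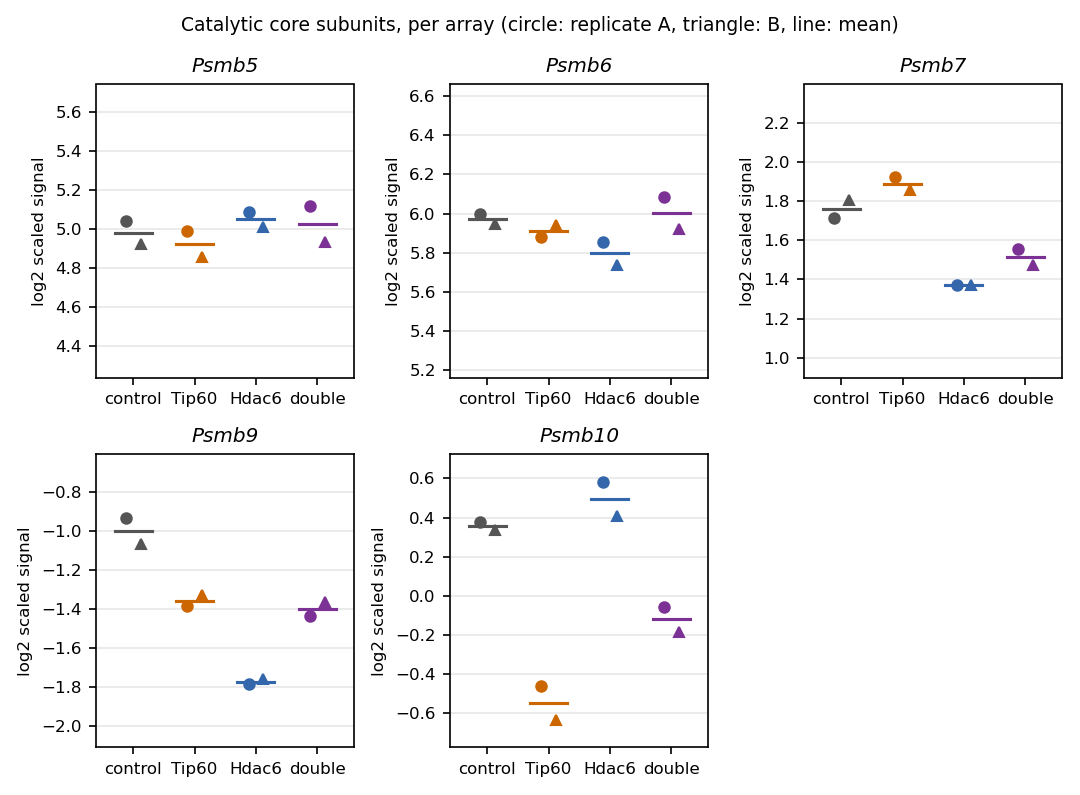
Log2 scaled signal of the catalytic subunits Psmb5, Psmb6 and Psmb7 and the immunoproteasome subunits Psmb9 and Psmb10 on each array (circles: replicate A, triangles: replicate B, lines: group means). Psmb10 is lowest in Tip60 KD, Psmb9 and Psmb7 are lowest in Hdac6 KD, and the arrays of Psmb5 overlap between groups.

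Genes that share interferon control or a neighbouring position with the immunoproteasome genes were examined from a fixed list of 7. Of the 5 that passed the filter (Tap2, Tapbp, Irf1, Nlrc5 and B2m), none was called upon Tip60 KD or in double KD ESCs (limma; 0 and 1 had an unadjusted p under 0.05), and only B2m, the light chain of MHC class I, was called upon Hdac6 KD, where it rose by 1.02 (adjusted p = 0.017). Tap1, which lies next to Psmb9, did not pass. Among the blood markers, Cd74 rose by 1.78, 1.30 and 1.52 in Tip60, Hdac6 and double KD ESCs, while Ptprc, which defines blood cells, lay between the floor and -2.18 on all arrays. The summed level of the 5 blood markers ranged from 4.04 to 4.15 with the control hairpin, 4.27 to 4.53 with Tip60 KD, 4.07 to 4.14 with Hdac6 KD and 4.25 to 4.35 with both, nearly all of it from Itgam, and its part in the immunoproteasome values was not tested.

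Among the alternative activators, Psme2, a subunit of the interferon-inducible PA28 ring, was 2.57 and 2.43 with the control hairpin, 1.88 and 1.74 with Tip60 KD, 2.49 and 2.29 with Hdac6 KD, and 2.22 and 2.05 with both. The Tip60 KD arrays lay lowest, double KD next, and Hdac6 KD overlapped control KD. It fell by 0.69 upon Tip60 KD (SE 0.12, adjusted p = 0.0077) and by 0.36 in double KD ESCs (adjusted p = 0.074; 0.27, 0.13, 0.10 and 0.27 without control KD array A, control KD array B, double KD array A and double KD array B). However, a second probe gave 0.01 upon Tip60 KD (adjusted p = 0.98) and the mouse genome holds a close copy of this gene, so that which transcript changed is uncertain. Psme1, its partner, fell by 0.37 in double KD ESCs (SE 0.07, adjusted p = 0.015; 0.25 in the deposited table of processed values). Psme3, which forms the nuclear PA28 ring, rose by 0.36 upon Hdac6 KD (adjusted p = 0.057; 0.11 to 0.21 without control KD array A or B or Hdac6 KD array A), and Psme4, which encodes the PA200 activator, was not called, although its second probe was upon Hdac6 KD (0.31, adjusted p = 0.049). With the block, Psme4 passed upon Tip60 KD and Hdac6 KD, Psme1 upon Tip60 KD and Psmf1 upon Hdac6 KD. Psmf1, an inhibitor of the core particle, was -1.18 and -1.41 with the control hairpin, -0.61 and -0.60 with Tip60 KD, -1.01 and -1.19 with Hdac6 KD, and -0.64 and -0.76 with both. It rose by 0.69 upon Tip60 KD and by 0.60 in double KD ESCs (SE 0.11, adjusted p = 0.0072 and 0.016), where its arrays lay above those of the other groups, and both calls were lost in that table (adjusted p = 0.11 and 0.17).

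The assembly chaperones moved in both directions. Psmd9, which attends assembly of the ATPase ring, was -0.53 and -0.80 with the control hairpin, 0.04 and -0.09 with Tip60 KD, -0.16 and -0.29 with Hdac6 KD, and -0.09 and -0.06 with both. All knockdown arrays lay above control KD, by 0.64, 0.44 and 0.59 (SE 0.12, adjusted p = 0.0096, 0.047 and 0.018), and a second probe gave 0.83, 0.34 and 0.62. The Psmd9 call upon Hdac6 KD was lost without control KD array B (adjusted p = 0.16), Hdac6 KD array A (0.18) or Hdac6 KD array B (0.12). Psmd5, a chaperone of the same kind, rose by 0.52 upon Tip60 KD (SE 0.07, adjusted p = 0.0044) and by 0.22 in double KD ESCs (adjusted p = 0.081; 0.11 to 0.23 without any 1 array). Psmg1, which helps to build the alpha ring, was 3.25 and 3.21 with the control hairpin, 2.98 and 2.86 with Tip60 KD, 2.86 and 2.73 with Hdac6 KD, and 2.91 and 2.89 with both. It lay below control KD on all knockdown arrays, by 0.31, 0.43 and 0.33 (SE 0.08, adjusted p = 0.037, 0.019 and 0.040), and a second probe gave -0.50, -0.46 and -0.33. The Psmg1 calls were lost upon Tip60 KD without control KD array A or Tip60 KD array B (adjusted p = 0.14 and 0.15), upon Hdac6 KD without Hdac6 KD array B (adjusted p = 0.11) and in double KD ESCs without any 1 of the arrays compared (adjusted p of 0.11 to 0.15). Psmd10 fell by 0.33 upon Hdac6 KD (adjusted p = 0.071; 0.10 to 0.26 without any 1 of the control, Tip60 or Hdac6 KD arrays), where its second probe gave -0.19 (adjusted p = 0.55). Psmg2, Psmg3 and Psmg4 were called in no knockdown, and with the block Psmg3 passed upon Tip60 KD and Hdac6 KD.

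Psmc3ip, the recombination factor, was 0.40 and 0.23 with the control hairpin, 0.39 and 0.41 with Tip60 KD, 0.94 and 0.68 with Hdac6 KD, and 0.51 and 0.29 with both. Its Hdac6 KD arrays stood above all others, with a change of 0.49 (SE 0.13, adjusted p = 0.048; 0.19 without control KD array B and 0.18 without Hdac6 KD array A).

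Double KD was next compared with each single knockdown, to see whether the second hairpin changed what the first had done. Against Tip60 KD, 4 proteasome genes (8.7%) were called, beside 3.71% of all genes, and all 4 were lower in double KD ESCs. Psmd14 differed by -0.71, Psmb1 by -0.65, Psmb7 by -0.37 and Psma6 by -0.32 (adjusted p = 0.074, 0.048, 0.095 and 0.095). With any 1 of the 8 arrays left out 0 were called by limma, and with all arrays 13 of the 46 had an unadjusted p under 0.05. Against Hdac6 KD, 6 (13.0%) were called, beside 10.1% of all genes, and 0 to 2 with 1 array left out: Psmb10 (-0.62), Psme3 (-0.42), Psmb1 (-0.30) and Psme1 (-0.27) were lower, and Psmb9 (0.37) and Psmd10 (0.39) were higher. With the replicate letter as a block, 19 of the 47 genes were called against Tip60 KD (26.2% of all genes) and 20 against Hdac6 KD (29.4%).

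Tip60 KD and Hdac6 KD ESCs were also compared directly. Of the 46 proteasome genes 11 (23.9%) differed, beside 23.5% of all genes, and with the block 23 of the 47 genes did, beside 41.5%. Higher in Tip60 KD were Psmd14 by 0.64, Psmb7 by 0.52, Psmf1 by 0.49, Psmd5 by 0.46, Psmb9 by 0.42, Psmc3 by 0.38 and Psmb1 by 0.36. Lower were Psmb10 (-1.05), Psme2 (-0.58), Psma3 (-0.39) and Psma7 (-0.30). For the catalytic sites, Psmb7 and Psmb9 were thus higher and Psmb10 lower in Tip60 KD than in Hdac6 KD ESCs, while Psmb5 and Psmb6 were not called (95% confidence intervals of -0.38 to 0.13 and -0.11 to 0.34).

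The interaction term asks whether the change in double KD ESCs differed from the sum of the single changes, or equally whether the Tip60 hairpin acted alike with and without Hdac6 KD. It passed for 13 of the 46 proteasome genes (28.3%), beside 22.0% of all genes, and for 28 of the 47 genes with the block, beside 47.1%. It was negative for 9 and positive for 4. The 5 regulatory particle genes among them, Psmd14, Psmc4, Psmd6, Psmc3 and Psmd11, all had negative terms. Which genes passed depended on the probe. Second probes of Psmd12 (-0.89), Psma4 (-0.67), Psmb5 (-0.55) and Psmd9 (-0.56) passed. Their representative probes did not (-0.40, -0.51, 0.04 and -0.50). The second probes of Psmc3 (-0.37) and Psmg1 (0.64) passed as their representative probes did. Psmd14 had the largest term, at -1.04 ± 0.17 (SE, limma, adjusted p = 0.018). It was 0.97 higher in Tip60 KD than in control KD ESCs. Double KD differed from Hdac6 KD ESCs by -0.07 (95% confidence interval -0.36 to 0.22). Psmb9 had the largest positive term, at 0.73 ± 0.11 (adjusted p = 0.017): the Tip60 hairpin lowered it by 0.36 without Hdac6 KD and raised it by 0.37 with it. Psmb10 had a term of 0.29 that was not called. Without any 1 array, between 5 and 9 of the 47 genes passed. The Tip60 hairpin itself took Kat5 to like levels in both settings, while Hdac6 was less depleted in double KD ESCs (above), and the part of that in these terms was not tested. The sample titles do not say whether single knockdown cells also received the control hairpin. Hairpin number may therefore differ between the settings, and its part was not tested either.

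**Figure D4:**
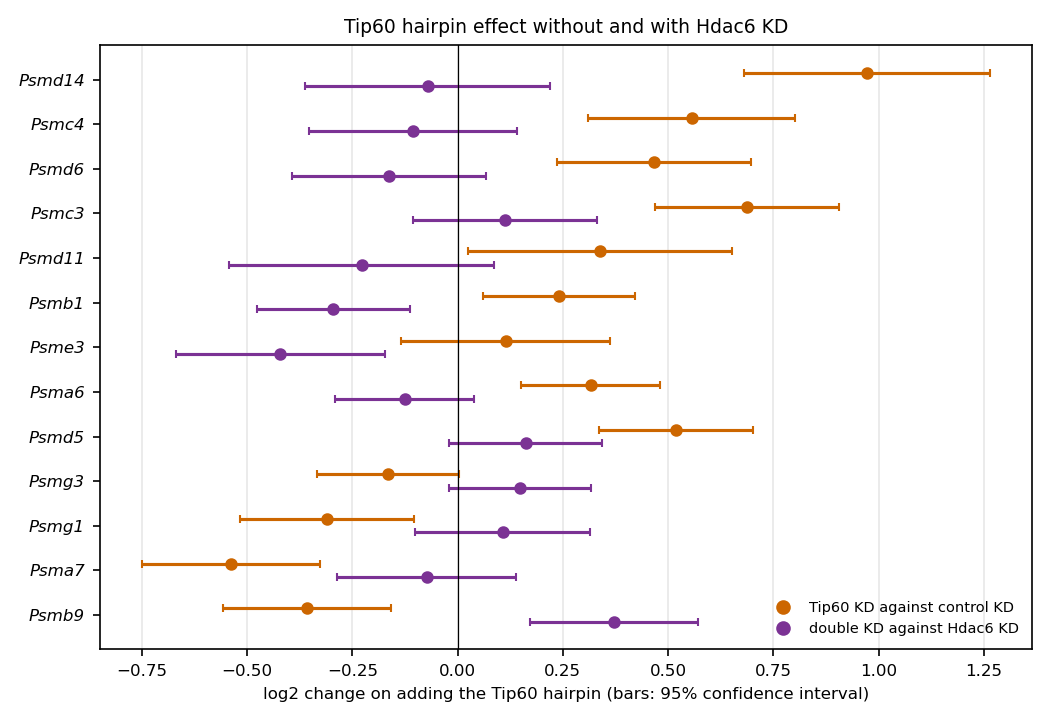
Log2 change with the Tip60 hairpin for the 13 proteasome genes with an interaction term at an adjusted p under 0.1 (limma). Orange is the first setting, Tip60 KD against control KD, and purple the second, double KD against Hdac6 KD. Bars are 95% confidence intervals from limma, and hairpin number may differ between the settings. The interval of Psmd14 lies above 0 in the first setting and spans 0 in the second, and those of Psmb1 and Psmb9 lie on opposite sides of 0.

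Other genes of the pathway were taken from a list of 28 receptors, cofactors, ubiquitin genes and regulators, of which 26 were tested. Upon Tip60 KD 7 rose and 6 fell, upon Hdac6 KD 6 rose and 4 fell, and in double KD ESCs 5 rose and 6 fell. These are 13, 10 and 11 of the 26 (50%, 38.5% and 42.3%), above the 39.7%, 28.9% and 32.8% of all genes, a difference that was not tested. Ddi2, the protease that activates the proteasome gene regulator Nfe2l1, rose by 0.77, 0.28 and 0.48 in Tip60, Hdac6 and double KD ESCs (adjusted p = 0.0014, 0.045 and 0.0076). Nfe2l1 itself was dim, and was well above background on only 7 arrays. It was -2.19 and -2.63 with the control hairpin, near the floor of -2.71, and -1.62 and -1.65 in double KD ESCs. Its change there was 0.78 (adjusted p = 0.030), and its changes of 0.09 and 0.49 in the single knockdowns were not called. The part of the floor and of the background in these Nfe2l1 values was not tested. Nfe2l2, a related regulator of stress genes, fell by 0.69 upon Tip60 KD and 0.54 in double KD ESCs. The ubiquitin receptor Adrm1 rose by 0.48 upon Tip60 KD (adjusted p = 0.026). Its partner Uchl5, a deubiquitylase of the regulatory particle, fell by 0.47 upon Tip60 KD and by 0.47 in double KD ESCs (adjusted p = 0.017 and 0.023). Zfand2a, a stress-induced proteasome cofactor, rose by 0.68, 0.45 and 0.89, and Akirin2, which serves nuclear import of proteasomes and is counted among those that fell, differed by -0.60, -0.55 and -0.50 from a single control KD array, the other having no value, so that its spread comes from the other groups alone.

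Promoters of the members were next searched for short motifs. RefSeq entries (build GRCm38.p6) gave 44 promoters of 41 member genes, with none for Psma8, Psmb1, Psmb2, Psmb7, Psmc3, Psmd3, Psmd7 and Psmg2. The 250 bases before each start were searched on both strands for TGACNNNGC (the core of the antioxidant response element), CACGTG (an E-box) and CCAAT. The first was found in 5 of 44 (11.4%, beside 10.2% of 32851 promoters of all genes), the second in 4 (9.09%, beside 6.02%) and the third in 15 (34.1%, beside 33.8%). Those with the first motif were Psmb5, Psmb6, Psmc6, Psmd12 and Psmd9. Of these, only Psmd9 was called in a knockdown by the probe that represents the gene. Second probes were called for Psmb5 (0.38 upon Tip60 KD and 0.31 upon Hdac6 KD) and Psmd12 (0.54 upon Tip60 KD). The promoters of the member that rose farthest upon Tip60 KD, of the one that fell farthest, and of Psmd9, which rose in all knockdowns, are shown with matches in capitals. They are those of Psmd14 (chr2:61711444-61711693, plus strand), Psmb10 (chr8:105938393-105938642, minus strand) and Psmd9 (chr5:123227940-123228189, plus strand). Psmd14 holds CCAAT on the opposite strand, Psmb10 holds CACGTG, and Psmd9 holds CACGTG and TGACNNNGC.
Psmd14: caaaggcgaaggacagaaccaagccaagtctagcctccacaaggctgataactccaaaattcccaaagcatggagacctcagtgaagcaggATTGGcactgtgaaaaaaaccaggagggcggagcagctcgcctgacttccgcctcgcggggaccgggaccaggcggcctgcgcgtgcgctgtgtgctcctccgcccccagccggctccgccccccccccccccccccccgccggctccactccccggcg
Psmb10: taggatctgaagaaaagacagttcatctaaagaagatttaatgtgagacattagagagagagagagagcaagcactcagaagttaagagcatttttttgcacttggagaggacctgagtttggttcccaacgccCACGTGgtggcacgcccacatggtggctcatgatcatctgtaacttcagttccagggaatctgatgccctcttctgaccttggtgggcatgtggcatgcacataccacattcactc
Psmd9: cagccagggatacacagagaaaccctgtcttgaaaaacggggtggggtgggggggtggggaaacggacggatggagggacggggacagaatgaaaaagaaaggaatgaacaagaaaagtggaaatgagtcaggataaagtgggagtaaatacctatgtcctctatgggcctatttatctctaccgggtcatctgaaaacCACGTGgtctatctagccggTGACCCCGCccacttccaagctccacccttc

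Of the 12 genes with several probes, 11 had more than 1 that passed the filter, and the probes had the same sign for 7 of 11 upon Tip60 KD, 10 upon Hdac6 KD and 9 in double KD ESCs. Besides Psmb5, Psme2, Psme4 and Psmd10, Psmd12 differed upon Tip60 KD, where its representative probe gave 0.13 (adjusted p = 0.50) and the other 0.54 (adjusted p = 0.030), and the probes of Psma4 differed in their call alone (0.26, adjusted p = 0.29, and 0.29, adjusted p = 0.038). Under all 18 alternatives the calls against control KD of Psma6, Psma7, Psmb10, Psmc3, Psmc4, Psmd14, Psmd5, Psmd6, Psmd9 and Psme2 upon Tip60 KD, of Psmb9 and Psmd6 upon Hdac6 KD, and of Psmc3 and Psmd9 in double KD ESCs held in direction and side of the threshold.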

How the data were processed

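RNA of 8 samples, 2 biological replicates in each of 4 groups, was hybridised to Agilent mouse arrays of 1 colour. The deposited scanner files hold processed signal intensities per spot, which, per the file headers, Feature Extraction made by background subtraction (the submitters' processing notes name version 10.7.1.1), and flags for spots well above background, saturated or outlying. A deposited table of the whole series holds log2 values that the authors processed; their base and the near equal distributions were inferred from the values (column medians of 8.19 to 8.20), the kind of normalisation is not given in the sources used here, and the table served as an alternative only.

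Control spots and outlier-flagged spots were left out, spots of a probe were averaged, and intensities were scaled to the 75th percentile within each array. Values under the floor of 0.153 (-2.71 on the log2 scale; 8.86% of the values tested) were set to it. The floor is the highest, over the arrays, of each array's lowest signal well above background. A probe was kept if 2 or more arrays measured it over this floor and well above background. Where a gene had several such probes, the brightest on average stood for it. Genes were named through RefSeq where the accession matched (27234 probes), and otherwise as the files name them. No spot was saturated. All 8 arrays entered 1 fit with limma 3.58.1 in R 4.3.3 (4 residual and 1.84 prior degrees of freedom), with Benjamini-Hochberg adjustment over 18116 genes and a threshold of 0.1. The p-values measure the spread between these samples, whose number limits the precision. Python 3.11.15, pandas 2.3.3 and matplotlib 3.10.9 made the summaries and plots, and the fit was tested on simulated data.

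Replicates with the same letter lay on the same slide, and their deviations from the group means correlated in all 6 pairs of groups (r = 0.651 to 0.799), so the letter was also fitted as a block. Each group kept its own place on the slide, and place and group cannot be told apart. Other alternatives were normexp correction, no background subtraction, quantile normalisation, the deposited log2 table, 3 filters or treatments of dim values, the mean of a gene's probes, only the arrays compared, and leaving out each array. Full values per array are given for the catalytic and immunoproteasome subunits, up to 3 members with the largest called change in each knockdown, and members called alike in all knockdowns. The members and gene lists were chosen with earlier results of these data known, and some listed genes are not reported here by name.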

Additional observations from a re-analysis of the deposited data

Results flagged for a closer look

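The interaction term, which tests whether adding the Tip60 hairpin had the same effect without and with Hdac6 KD, passed an adjusted p of 0.1 (limma, 2 arrays a group) for 13 proteasome genes. In the regulatory particle it was -1.04 for Psmd14, -0.66 for Psmc4, -0.63 for Psmd6, -0.58 for Psmc3 and -0.57 for Psmd11. In the core rings it was -0.54 for Psmb1, -0.44 for Psma6 and 0.46 for Psma7, and for the immunoproteasome subunit Psmb9 it was 0.73. Among activators and chaperones it was -0.54 for Psme3, -0.36 for Psmd5, 0.31 for Psmg3 and 0.42 for Psmg1. Over all genes 22.0% passed. Hdac6 was less depleted in double KD than in Hdac6 KD ESCs, and the part of that in these values was not tested. Hairpin number may also differ between the settings, and its part was not tested.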

How the results depend on the processing

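Counts are of the 47 genes tested, and no call against control KD changed direction under any of the 18 alternatives. With the replicate letter as a block the counts rose from 18 to 25 upon Tip60 KD, 12 to 23 upon Hdac6 KD, 15 to 21 in double KD ESCs, 4 to 19 for double against Tip60 KD, 6 to 20 for double against Hdac6 KD, 12 to 23 for Tip60 against Hdac6 KD and 13 to 28 for the interaction. In the same order of comparisons, leaving out 1 array gave 13 to 17, 4 to 13, 7 to 13, 0 to 0, 0 to 2, 4 to 11 and 5 to 9. The lowest counts against control KD came without Hdac6 KD array A (4 upon Hdac6 KD) and without control KD array A (7 in double KD ESCs). For double against Tip60 KD, normexp correction gave 0, no background subtraction 1, the deposited log2 values 1 and only the arrays compared 0. For double against Hdac6 KD these gave 1, 1, 2 and 0. For Tip60 against Hdac6 KD, normexp, no subtraction and only the arrays compared gave 7 each, and for the interaction the first 2 of these gave 7 each, which uses all arrays in any case. The cause was not tested, except that the block removes the difference between slides, and that fewer arrays leave fewer degrees of freedom. In double KD ESCs the split of the 46 proteasome genes, 7 higher and 8 lower, became 16 and 6 with quantile normalisation and 10 and 4 in the deposited log2 table. The median change of the core rings there moved from 0.01 to 0.19 and 0.21. Of the called changes, 10 of 18 upon Tip60 KD, 2 of 12 upon Hdac6 KD and 2 of 15 in double KD ESCs held under all 18 alternatives.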
